A study of Mus musculus with 2 samples.

Results

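The insulin-like growth factor (IGF) system was examined in the midbrain of mouse embryos at embryonic day 10.5. Its 10 genes were chosen by symbol from the gene table, which holds 43346 genes, and all 10 were found. They comprise the ligands Igf1 and Igf2, the receptors Igf1r, Igf2r and Insr, and the binding proteins Igfbp2, Igfbp3, Igfbp4, Igfbp5 and Igfbp6. Total RNA-seq was made from midbrain of healthy B6NCrl embryos of both sexes, with no treatment or engineered allele named in the labels. Replicate 1 pooled 69 embryos and replicate 2 pooled 51 embryos, and these 2 libraries of 1 group were analysed. There is no contrast between conditions, so the values describe levels, their order, their transcript make-up and the spread between the pools. No p-value was computed, because even 2 libraries against 2 could not go below an exact two-sided p of 0.333.

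IGF1 and IGF2 are small secreted peptides related to insulin that act through IGF1R, a receptor tyrosine kinase which promotes growth and survival through AKT and mTOR. The insulin receptor, INSR, binds insulin and, in one of its splice forms, IGF2. IGF2R lacks a kinase domain and carries IGF2 to lysosomes for degradation. IGF binding proteins hold the ligands outside the cell, and proteases release them. In the embryo, Igf2 is expressed from the paternal allele and Igf2r, in most mouse tissues, from the maternal allele.

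Sequence shows what the binding proteins share beyond their name. A cysteine-rich run lies in the amino-terminal domain typical of the family: alternating codons for glycine and cysteine, a doubled cysteine, 2 free codons and a last cysteine. It was searched in frame, on the coding strand, in GENCODE M21 coding sequences, 1 transcript a gene. The codons found are given 5′ to 3′, with the fixed codons in capitals and the free pair in lower case, for the 4 members that hold it and for Igfbp1.
Igfbp2: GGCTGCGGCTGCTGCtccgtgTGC
Igfbp3: GGCTGCGGCTGCTGCctgactTGC
Igfbp4: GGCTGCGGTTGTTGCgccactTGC
Igfbp5: GGCTGTGGCTGCTGCatgactTGC
Igfbp1: GGCTGTGGCTGCTGCccgacaTGT
The run began at codon 67 of Igfbp2, codon 68 of Igfbp3, codon 52 of Igfbp4 and codon 51 of Igfbp5. It was not found in the coding sequence of Igfbp6. Of 21614 genes with a coding sequence, 18 held it, or 0.0833%, among them Ccn1 and Ccn2, relatives of the family. An arginine, glycine and aspartate triplet, the kind of site integrins can recognise, was found in Igfbp2 at codon 281 and in none of the other 4 binding proteins measured as members. Igfbp1, not a member, also held it, at codon 259. That triplet is common, since 1565 of the 21614 genes (7.24%) held it.

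The binding proteins were the most abundant class of the system. Levels are in TPM, a unit that divides estimated reads by transcript length and scales every library to the same total of 1000000, and so allows genes to be compared. Of the 10 genes of the system, 9 reached 1 TPM in both libraries. Over all protein-coding genes the same held for 12477 of 21474, or 58.1%. In these whole-tissue pools, fewer cells of a type and less RNA per cell cannot be told apart.

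**Figure D1:**
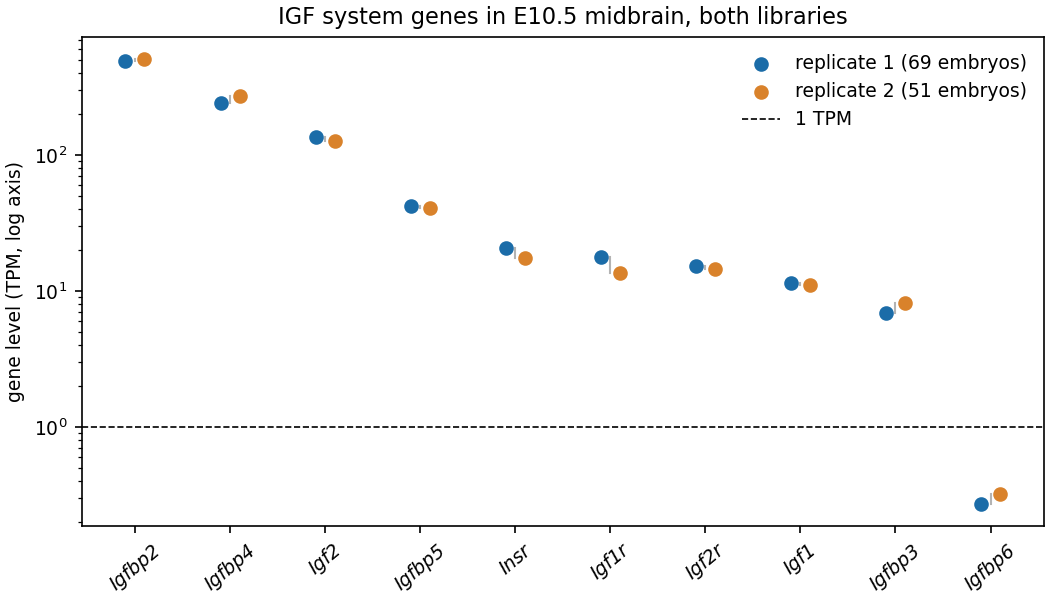
Gene level in TPM, on a log axis, of the 10 IGF system genes in each library, 1 point per library. Igfbp2 stands highest (495 and 510.1 TPM) and Igfbp6 lies under the dashed line at 1 TPM, and the 2 libraries lie close together for each gene.

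Igfbp2, a binding protein with a preference for IGF2, was at 495 TPM in replicate 1 and 510.1 TPM in replicate 2. Its mean of 502 ± 10.8 TPM (SD, n = 2) was the highest of the system and ranked 247 among 21474 protein-coding genes. The gene lies on the plus strand of chromosome 1 (chr1:72824503-72852474, GRCm38), and 17450 and 20641 estimated reads stood behind its values. Both libraries lay above every other member.

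Igfbp4, which generally restrains IGF action until PAPP-A cleaves it, was at 243 and 272 TPM (258 ± 20.1, SD, n = 2; rank 581). It lies at chr11:99041244-99054392 on the plus strand, with 14745 and 19342 estimated reads. Igfbp5, a binding protein that also attaches to extracellular matrix, was at 42.3 and 41.0 TPM (41.7 ± 0.926, SD, n = 2; rank 3953). It lies at chr1:72857932-72874884 on the minus strand, 5457 bp from Igfbp2 and facing it. The neighbours differed in level by 11.7-fold in replicate 1 and 12.4-fold in replicate 2, with Igfbp2 the higher.

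Igfbp3, the main carrier of IGF in adult blood, was at 6.91 and 8.13 TPM (7.52 ± 0.863, SD, n = 2; rank 9238). It lies at chr11:7206086-7213923 on the minus strand, 3539 bp from Igfbp1, which had 0.19 and 0.21 TPM. Igfbp6, another binding protein that prefers IGF2, was at 0.27 and 0.32 TPM (0.295 ± 0.0354, SD, n = 2; chr15:102144362-102149511, plus strand). Only 8 and 11 estimated reads stood behind it, against limits of 0.101 and 0.0882 TPM for a count of 0 (3 reads of the library). Igfbp6 was the only member under 1 TPM.

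Summed, the binding proteins that are members reached 788 TPM in replicate 1 and 831 TPM in replicate 2. Igfbp2 held 62.8% and 61.4% of that sum, and Igfbp2 with Igfbp4 held 93.7% and 94.0%. These sums count all transcripts, and those not annotated as coding held a mean of 53.0% of Igfbp4 and 39.8% of Igf2. Counted in this way, the binding proteins exceeded the summed ligands 5.37-fold and 6.02-fold. These are ratios of RNA levels, not of proteins.

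Of the ligands, Igf2 was by far the higher. Igf2 was at 135 and 127 TPM (131 ± 5.71, SD, n = 2; rank 1261; chr7:142650766-142666816, minus strand), with 4502 and 4887 estimated reads. Igf1 was at 11.5 and 11.1 TPM (11.3 ± 0.339, SD, n = 2; rank 8124; chr10:87858265-87937042, plus strand), with 1569 and 1589 reads. Igf2 exceeded Igf1 11.7-fold in replicate 1 and 11.5-fold in replicate 2. Counting only transcripts annotated as coding, the ratio was 6.96 and 7.02. The insulin genes Ins1 and Ins2 had 0 reads in both libraries.

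The 3 receptors lay close to one another at gene level. Insr was at 20.7 and 17.5 TPM (19.1 ± 2.26, SD, n = 2; rank 6487; chr8:3122061-3279617, minus strand). Igf1r was at 17.8 and 13.7 TPM (15.7 ± 2.96, SD, n = 2; rank 7123; chr7:67952827-68233668, plus strand). Igf2r was at 15.2 and 14.4 TPM (14.8 ± 0.544, SD, n = 2; rank 7327; chr17:12682406-12769664, minus strand). Over the libraries, the ranges of Insr and Igf1r overlapped, as did those of Igf1r and Igf2r. Within each library Igf1r was below Insr, with a log2 ratio of -0.29 ± 0.10 (SD, n = 2), whereas Igf2r over Igf1r was -0.076 ± 0.22 (SD, n = 2) and did not differ beyond its spread. Every other pair of neighbours in the order, from Igfbp2 down to Igfbp6, had ranges that did not overlap.

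Igf2r was 0.852 times Igf1r in replicate 1 and 1.06 times in replicate 2, so the order turned between the pools. Igf2 exceeded Igf2r 8.89-fold and 8.81-fold. The tables give Igf1r a single transcript of 4489 nt, whereas GENCODE M21 gives that transcript 11409 nt. Its TPM rests on the shorter model.

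The order of the receptors depended on which transcripts were counted. Of the TPM of Insr, 88.2% and 87.7% lay in a transcript not annotated as coding. Over detected protein-coding genes, 948 of 12477 (7.60%) had more than 50% of their TPM in such transcripts in both libraries, as Insr and Igfbp4 did. More than 80% was reached by 247 genes (1.98%), among them Insr. Transcripts with no entry in GENCODE M21 were also counted as not annotated as coding. By coding transcripts alone Insr had 2.44 and 2.15 TPM (2.30 ± 0.205, SD, n = 2) and came ninth of the 10 genes, below Igfbp3. Igf1r then exceeded Insr 7.31-fold and 6.35-fold, where at gene level it was 0.861 and 0.779 times Insr. Only 1 Igf1r transcript was measured, of 6 in GENCODE M21, and it is coding. Counting in this way could thus lower Insr but not Igf1r.

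**Figure D2:**
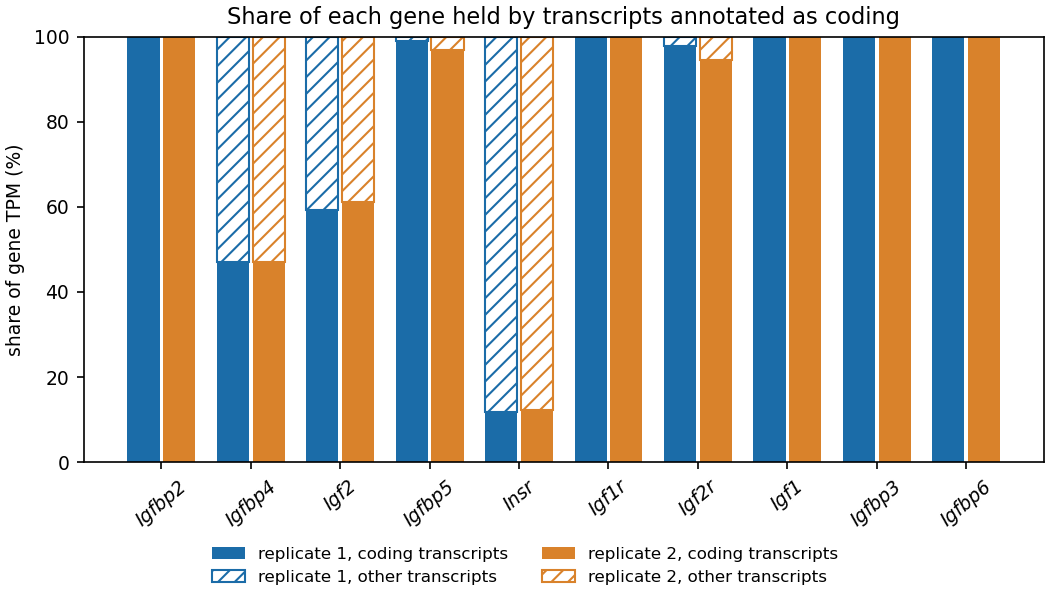
Share of gene TPM in percent held by transcripts annotated as coding (filled) and by all others (hatched), for each member and library. Insr is mostly hatched (88.2% and 87.7%), Igfbp4 and Igf2 are hatched in part, and the remaining genes are filled to above 94%.

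Insr is represented by 2 transcripts, named here, as for the other genes, by length. The transcript of 1675 nt, annotated as a retained intron, was at 18.3 and 15.4 TPM, while the coding transcript of 9355 nt and 21 exons was at 2.44 and 2.15 TPM. In estimated reads the split was closer, since the retained-intron transcript held 56.1% and 55.0% of the reads of the gene. Of its 1675 bases, 1397 also lie in the coding transcript, and 278 lie in the intron after exon 3. Most of its length is thus shared with the coding transcript, and how shared reads were divided between the short and the long model was not tested here, so the level of Insr is given both ways. The boundary that sets it apart is shown because those intron bases are the sequence that the full-length transcript lacks. It covers chr8:3211349-3211408 on the minus strand (GRCm38), 30 bases of exon 3 followed by 30 bases of the intron, with the first bases of the intron in capitals.
Insr exon 3 and retained intron: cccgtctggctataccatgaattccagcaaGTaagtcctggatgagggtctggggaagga
How many reads crossed that boundary was not measured here. A short alternative exon of 36 nt separates the known insulin receptor forms A and B. It lies in a transcript that GENCODE M21 has and the tables do not, and overlaps 0 exons of the 9355 nt transcript. The forms were thus not measured here.

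Igfbp4 showed a like split of TPM. A processed transcript of 785 nt, annotated as not coding, was at 129 and 144 TPM, or 52.9% and 53.0% of the gene. The coding transcript of 3831 nt was at 110.5 and 128 TPM. By estimated reads, the processed transcript held 17.6% and 17.2%, and 28 of its bases lie outside the 3831 nt transcript. As for Insr, the division of shared reads was not tested. Counting coding transcripts alone, Igfbp4 was at 114 and 128 TPM (121 ± 9.43, SD, n = 2), which left it below Igfbp2 and above Igf2, at 80.2 and 77.6 TPM (78.9 ± 1.85, SD, n = 2).

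Igf2 was spread over several transcripts. The most abundant by TPM was a coding transcript of 650 nt, at 54.3 and 52.9 TPM (40.2% and 41.6% of the gene). It held 19.5% and 20.0% of the reads, and 41 of its bases are in no other Igf2 transcript. A processed transcript of 958 nt was next at 48.2 and 44.0 TPM (35.7% and 34.6% by isoform percent). All 958 bases lie in exons of the 3708 nt coding transcript and none in its coding region, and the division of shared reads was again not tested. The coding transcript of 2503 nt held 12.8% and 13.2%, and that of 4722 nt held 5.01% in both libraries.

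**Figure D3:**
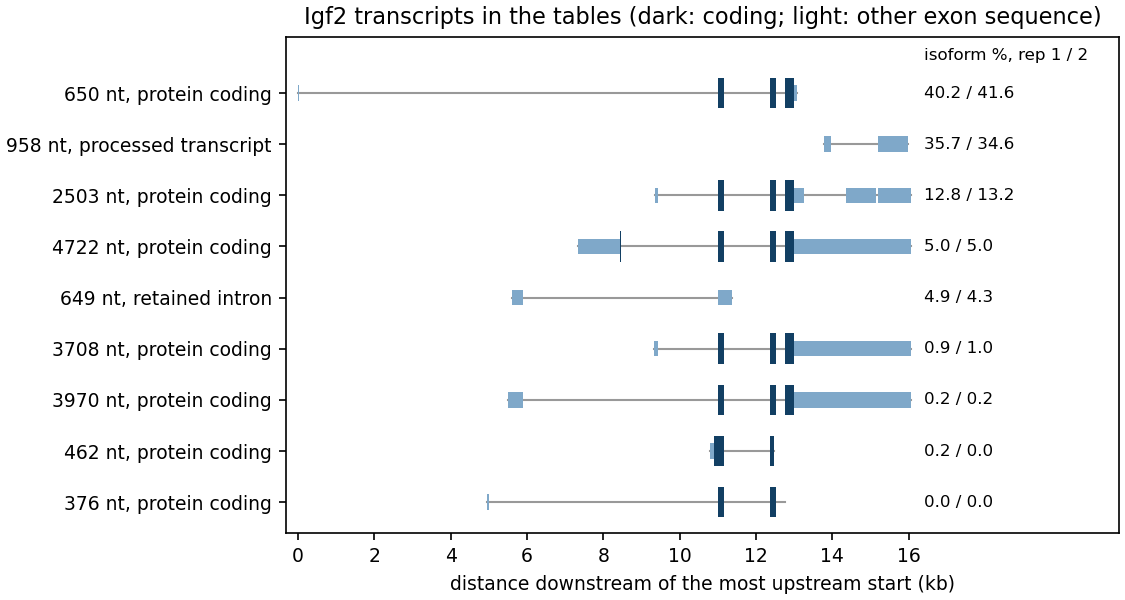
Exon maps of the Igf2 transcripts in the tables, by distance in kb downstream of the most upstream start, with coding sequence dark and other exon sequence light, and the isoform percent of each library at the right. The 650 nt transcript alone begins at the most upstream start (40.2% and 41.6%), and the 958 nt transcript lies wholly downstream of the coding exons.

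The starts of the coding Igf2 transcripts lie kilobases apart. The 650 nt transcript begins at position 142666816 of chromosome 7, and those of 3708 and 2503 nt begin within 50 bases of position 142657496. Transcripts of the downstream start had 18.5 and 18.1 TPM (13.7% and 14.2% of the gene) but 1349 and 1512 reads, against 879 and 978 reads for the 650 nt transcript. A start between them, at position 142659489, is that of the 4722 nt transcript, with 6.77 and 6.36 TPM but 919 and 988 reads. The order of these starts thus differed between TPM and reads. Of them, the upstream start was highest by TPM and lowest by reads. The promoter windows of the upstream and downstream starts are shown because their transcripts hold most of the coding TPM of Igf2. They run from 250 bases before to 50 bases after the start, on the minus strand, and come from RefSeq on GRCm38.p6. The first covers chr7:142666767-142667066 and the second chr7:142657447-142657746, with GGGCGG in capitals.
Igf2 upstream start: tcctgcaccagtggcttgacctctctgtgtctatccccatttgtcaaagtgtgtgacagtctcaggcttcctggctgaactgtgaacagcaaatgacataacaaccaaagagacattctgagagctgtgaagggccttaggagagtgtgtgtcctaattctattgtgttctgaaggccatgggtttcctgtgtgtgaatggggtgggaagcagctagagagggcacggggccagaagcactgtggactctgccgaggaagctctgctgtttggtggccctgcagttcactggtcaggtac
Igf2 downstream start: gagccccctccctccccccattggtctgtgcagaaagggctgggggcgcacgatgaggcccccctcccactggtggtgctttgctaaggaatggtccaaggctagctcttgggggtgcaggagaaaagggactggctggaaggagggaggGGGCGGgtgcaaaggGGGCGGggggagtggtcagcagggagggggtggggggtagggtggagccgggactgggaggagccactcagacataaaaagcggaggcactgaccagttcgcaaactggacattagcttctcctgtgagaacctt
The upstream window had 52.3% GC and 2 CpG, and the downstream window had 63.3% GC and 7 CpG. The motif GGGCGG, searched on both strands, was found 2 times in the downstream window and not in the upstream one. Over all 32851 promoter windows, 35.7% held GGGCGG. The motif TATAAA, searched on both strands, was in neither window and in 13.6% of all windows. A match is a description of letters, and no binding was measured.

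Igf1 transcripts differed at both ends. The transcript of 7052 nt held 58.7% and 51.9% of the gene, that of 1673 nt held 15.1% and 21.2%, that of 651 nt held 9.27% and 9.95%, and that of 2292 nt held 6.97% and 8.70%. Transcripts with the upstream of the alternative leader exons held 75.2% and 75.3% of the TPM, and those with the downstream leader held 24.8% and 24.7%. The leader shares thus differed by less than a percentage point between the pools, but the downstream share rested on only 100 and 114 estimated reads. How closely the pools agree in leader choice is limited by these low read numbers. An internal exon of 52 nt, which shifts the reading frame of the E peptide at the end of the IGF1 precursor, is shown in capitals with flanking transcript bases in lower case. It lies at chr10:87915298-87915349 on the plus strand.
Igf1 exon of 52 nt: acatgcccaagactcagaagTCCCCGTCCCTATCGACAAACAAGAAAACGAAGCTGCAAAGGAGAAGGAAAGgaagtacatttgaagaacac
Transcripts with this exon or its longer form held 31.3% of the TPM in replicate 1 and 39.8% in replicate 2. That share rested on 149.5 and 215 estimated reads of 1569 and 1589. By estimated reads, the 7052 nt transcript held 88.1% and 84.3% of the gene. The 1673 nt and 651 nt transcripts have 0 bases that are in no other Igf1 transcript. How shared reads were divided was not tested here either. The coding sequence was 459 nt in the 7052 nt transcript, which lacks the exon, and 477 nt in the 1673 nt transcript, which has it.

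The remaining members had 1 leading transcript each. It held 97.9% and 94.6% of Igf2r, 98.0% and 98.9% of Igfbp2, 97.46% and 95.7% of Igfbp3, and 98.9% and 97.0% of Igfbp5. Igf1r and Igfbp6 had a single transcript in the tables.

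Between the pools, no member moved by 1.5-fold. Estimated reads were scaled by TMM, a library scaling from edgeR, 0.5 was added, and the log2 ratio of replicate 2 over replicate 1 was formed with an exact 95% interval (Clopper-Pearson) that covers counting error only. Of the 9 members with a mean of 1 TPM or more, 0 passed 1.5-fold, against 1423 of 14768 genes (9.64%). With 9 genes and that background, the count says little about the members.

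**Figure D4:**
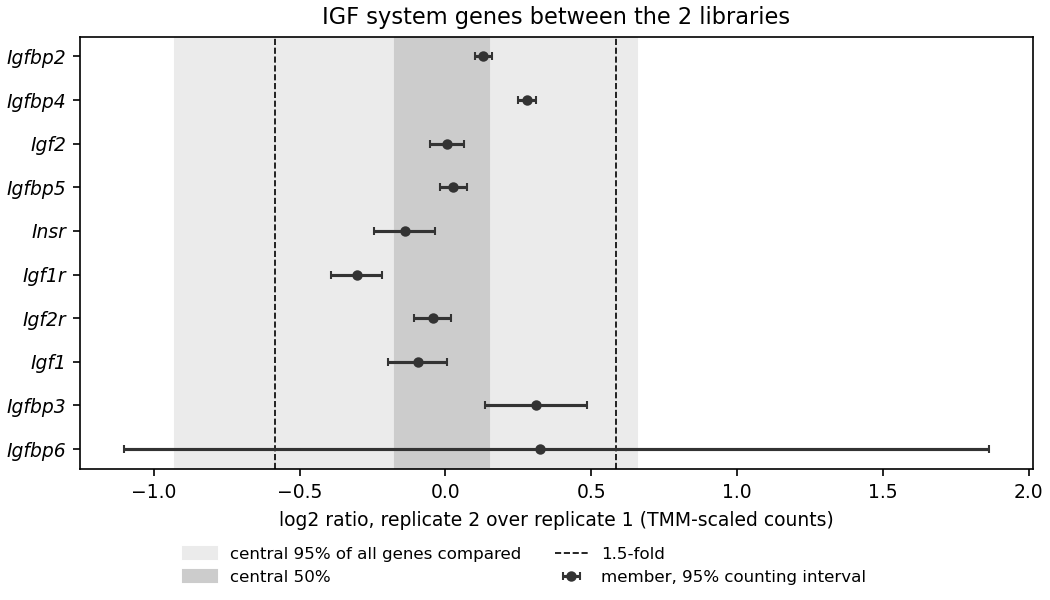
Log2 ratio of replicate 2 over replicate 1 for each member with its 95% counting interval, over bands holding the central 50% and 95% of all genes compared and dashed lines at 1.5-fold. Igf1r lies lowest at -0.30, Igfbp3 and Igfbp4 lie near 0.3, and the interval of Igfbp6 spans both dashed lines.

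Igfbp3 (0.31, interval 0.13 to 0.48) and Igfbp4 (0.28, interval 0.25 to 0.31) were higher in replicate 2 beyond counting error. Igfbp2 was also higher, by 0.13 (0.10 to 0.16). Igf1r was lower in replicate 2, at -0.30 (-0.39 to -0.22), and Insr at -0.14 (-0.24 to -0.035). The intervals of Igf1, Igf2, Igf2r, Igfbp5 and Igfbp6 included 0. The ratio of Igf2 was 0.0050 under TMM and -0.089 from TPM without further scaling, and that of Igfbp5 was 0.027 and -0.045, so neither has a direction. From TPM without further scaling Igfbp4 was at 0.16, Igfbp2 at 0.044 and Insr at -0.24, the same directions at other sizes. TPM without further scaling placed the median of all genes at -0.071, where TMM placed it at 0.0060.

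Some markers of other cell types also differed between the pools, in both directions. Over all genes compared, 6.54% were 1.5-fold or more higher in replicate 1 and 3.09% in replicate 2, the shares to set beside the counts here. Of 8 neuron markers, 4 were 1.5-fold or more higher in replicate 1, and the list summed to 1262 TPM there and 789.6 TPM in replicate 2. Of 15 head mesenchyme and meninges markers, 14 were detected and 3 were higher in replicate 1, with sums of 866 and 613 TPM, and Tcf21 had 1 read in each library. The fall in that sum lay mainly in the collagen genes Col3a1, Col1a1 and Col1a2, while the median log2 ratio over the list was 0.0081. Other genes of the list, named after their values were seen, lay on both sides of 0. Dcn (-1.10), Lum (-0.32) and Pdgfra (-0.29) were below 0, and Twist1 (0.25), Prrx1 (0.25) and Foxc2 (0.35) above 0. Of 8 macrophage markers, 3 were higher in replicate 1, with sums of 93.4 and 61.1 TPM. Of 8 surface ectoderm markers, 6 were detected and 1, Krt18, was higher in replicate 2 (1.96-fold), with sums of 49.3 and 64.4 TPM and a median log2 ratio of 0.38. Of 9 endothelial markers all were detected, with sums of 192 and 209 TPM and a median log2 ratio of 0.039. Only 1 of them, Emcn, named after its values were seen, passed 1.5-fold, higher in replicate 2 (1.51-fold). None of these markers other than Tcf21 was at or near 0 in the neuron, macrophage, mesenchyme and endothelial lists, and Krt5 was at 0.10 and 0.19 TPM. The part of these cell types in the lower Igf1r and Insr and the higher Igfbp3 and Igfbp4 of replicate 2 was not tested. Of 7 midbrain identity markers 6 were detected, with sums of 227 and 202.2 TPM, and the exception, En2, had 0.92 and 0.71 TPM. Erythroid markers summed to 16697 and 18593 TPM, so blood markers were high in both pools. Reads assigned to genes numbered 45531621 and 50477634.

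The other genes of the pathway were read from 6 lists holding 92 genes, of which 74 reached 1 TPM in both libraries. Over all protein-coding genes 58.1% did so, and the detected counts of each list below are to be read beside that share. Among 78 with a mean of 1 TPM or more, 7 were 1.5-fold or more higher in replicate 2 and 3 higher in replicate 1, where all genes gave 3.09% and 6.54%. The median log2 ratio over these genes was -0.010, against 0.0060 over all genes compared.

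**Figure D5:**
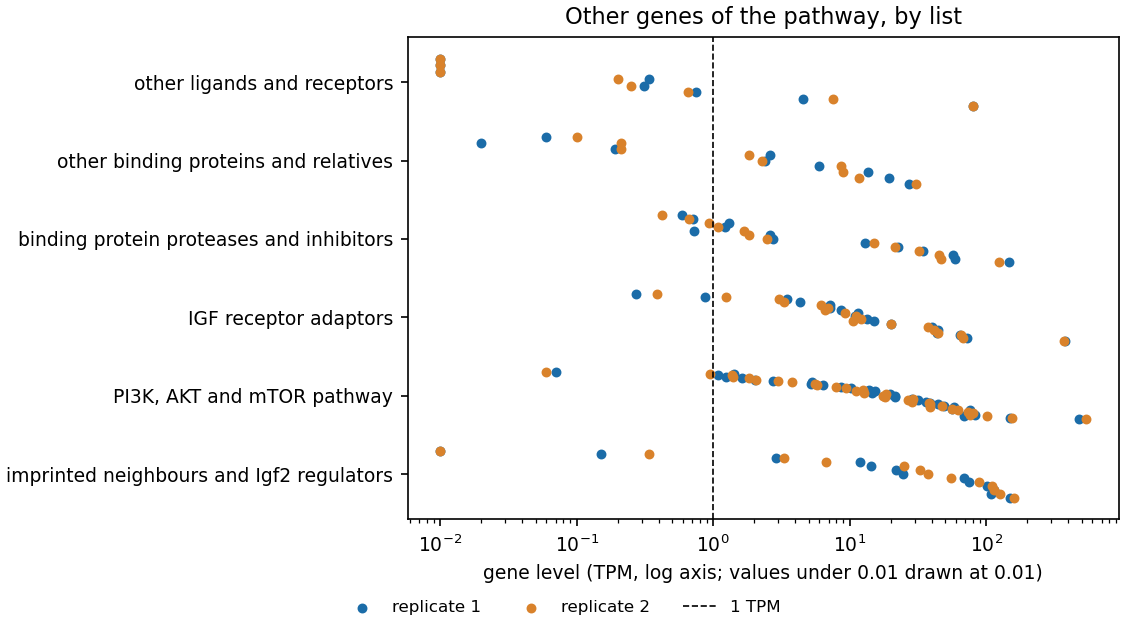
Level in TPM, on a log axis, of each gene of the 6 pathway lists in each library, 1 point per gene and library (equal values overlie), with a dashed line at 1 TPM. Receptor adaptors and the PI3K, AKT and mTOR genes lie mostly to the right of the line, with 16 of 18 and 31 of 33 detected. Over all protein-coding genes 58.1% were detected.

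Of the other ligands and receptors, 2 of 8 were detected. M6pr, the small mannose 6-phosphate receptor that shares lysosomal sorting with IGF2R, was at 80.4 TPM in both libraries, 5.29 and 5.58 times Igf2r. Insrr, the insulin receptor-related receptor, was at 0.75 and 0.65 TPM. Insl6, a relaxin family member, was at 4.53 and 7.58 TPM and was the higher in replicate 2.

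Of the other binding proteins and relatives, 6 of 9 were detected. The matrix protein gene Ccn1 was at 27.4 and 30.7 TPM. Igfbpl1 had 19.5 and 11.7 TPM, and Igfbp7 had 13.7 and 8.92 TPM. Igfbpl1 passed 1.5-fold, higher in replicate 1. Igfals, the liver protein that holds IGF in a ternary complex in blood, had 1 and 14 reads.

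Of the proteases of the binding proteins and their inhibitors, 9 of 13 were detected. The cathepsin Ctsd led at 147 and 124 TPM, followed by Plat with 58.8 and 46.3 TPM and Mmp14 with 56.8 and 45.2 TPM. Pappa, the protease that cleaves IGFBP4, had 2.74 and 2.49 TPM, and Pappa2 had 1.31 and 0.93 TPM. Stc2, an inhibitor of PAPP-A, was at 0.72 and 1.67 TPM, higher in replicate 2. Htra1, a serine protease also listed among the relatives and named after its values were seen, was at 2.61 and 1.82 TPM, higher in replicate 1.

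Of the receptor adaptors, 16 of 18 were detected. Grb10, an imprinted adaptor that restrains IGF1R and INSR signalling, was at 379.8 and 375 TPM, above every receptor. Irs1 had 7.13 and 6.20 TPM, and Irs2 had 7.23 and 6.94 TPM. These docking proteins carry the signal from the receptors to PI3K. Irs4 had a mean of 1.06 ± 0.269 TPM (SD, n = 2) and was 1.53-fold higher in replicate 2 after scaling, while Irs3 was lowest at 0.27 and 0.39 TPM.

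Of the PI3K, AKT and mTOR genes, 31 of 33 were detected. Rps6, a ribosomal protein phosphorylated downstream of mTOR, had 482 and 542 TPM, and Rheb, the GTPase that activates mTOR, had 149.7 and 154 TPM. Eif4ebp1, a translation repressor that mTOR inactivates, was at 68.6 and 100.7 TPM, higher in replicate 2. Foxo6 was lowest, with 0.07 and 0.06 TPM.

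Of the imprinted neighbours and Igf2 regulators, 11 of 13 were detected. H19, the noncoding RNA of the imprinted domain of Igf2, lies 72.6 kb away and was at 74.4 and 88.3 TPM, so that Igf2 was 1.81 and 1.44 times H19. Igf2bp1, whose protein binds Igf2 mRNA, was at 149 and 161 TPM. Its relative Igf2bp2 had 108 and 126 TPM, and Ctcf, the insulator protein gene, had 114 and 115 TPM. Airn, the paternally expressed RNA that overlaps Igf2r by 28.4 kb on the other strand, was at 2.87 and 3.30 TPM. Whether counting used strand is unknown, so reads of Igf2r and Airn in exons within that overlap cannot be told apart. The same holds for Igf2 and Igf2os, which overlap by 7.1 kb. Both overlaps are of whole gene spans, introns included, and how much exon sequence they hold is not given here. Hmga2, Lin28a and Lin28b, named after their values were seen, are growth and RNA-processing regulators of early embryonic cells. Hmga2 had 24.4 and 37.7 TPM, Lin28a had 14.2 and 24.8 TPM, Lin28b had 21.8 and 32.6 TPM, and all 3 were higher in replicate 2 by 1.5-fold or more. The neighbour Th, also named after its values were seen, was at 11.9 and 6.68 TPM, higher in replicate 1.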

How the data were processed

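Total RNA-seq was made from 10 ng of RNA above 200 nt from 2 pools of E10.5 midbrain, called biological replicates per the labels. The labels name a total RNA assay but link a SMARTer Ultra Low manual, so RNA capture and strand are taken as unknown. Per the deposited text files, gene and transcript tables were made on mm10 with GENCODE M4; no aligner or quantifier is named in them, and these are otherwise not given in the sources used here. The deposited expected counts are estimated reads and can be fractional. TPM, as deposited, divides them by effective length (length less 99 nt) and scales each library to 1000000, spike-ins included. The deposited FPKM values and the deposited posterior mean TPM served as alternatives. Isoform percent, as deposited, gives the part of gene TPM in a transcript. The deposited credible bounds, a signal in TPM units at a level not stated, were not used.

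Total expected counts were 47128426 and 52189568, of which spike-ins took 3.39% and 3.28%. The 97 spike-in and 26248 tRNA rows stayed out of library sizes. Names and positions came from GENCODE M21 on GRCm38, matched by gene identifier (42462 of 43346), and gene models may differ from M4. TMM came from edgeR 4.0.16 in R 4.3.3, and alternative size factors from DESeq2 1.42.0. Ratios, intervals and figures used Python 3.11.15, pandas 2.3.3, scipy 1.17.1 and matplotlib 3.10.9, and the ratio code was tested on simulated data. Detection meant 1 TPM in both libraries, and ratios between replicates were counted at a mean of 1 TPM. Promoter windows matched 9 of the 10 members in the RefSeq table.

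Named are all members, up to 3 of the highest and 1 of the lowest genes of a list, set genes of the pathway, and isoforms at a mean of 5 percent or more. The members and lists were chosen with earlier results of these data known. Alternatives covered scaling, minimum level, fold, added count, posterior means, and leaving out each library.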

Additional observations from a re-analysis of the deposited data

How the results depend on the processing

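Of 104 alternatives other than leaving out a library, 82 stayed within the spread or count limit, 21 moved and 1 reversed. Counting coding transcripts only, an alternative chosen after seeing the data, gave mean levels of 78.9 TPM for Igf2, 14.3 TPM for Igf2r, 2.30 TPM for Insr and 121 TPM for Igfbp4. It gave log2 ratios of 2.80 for Igf2 over Igf1 (3.54 in the report's setting) and 2.47 for Igf2 over Igf2r (3.15). Igf1r over Insr reversed, from -0.29 to 2.77, because the retained intron transcript left the sum. Posterior mean TPM gave 3.47 for Igf2 over Igf1 and 3.10 for Igf2 over Igf2r, and posterior isoform percent gave leading shares of 92.7% for Igf2r and 52.4% for Igfbp4; the cause was not tested. At 2-fold instead of 1.5-fold, 1 pathway gene, Stc2, passed in place of 10. Leaving out a library returns the value of the other, which with 2 libraries always lies within 1 SD of the mean, so it says nothing about stability; Igf2r over Igf1r was -0.23 in one and 0.079 in the other. Detection does not depend on that limit, and 9 members were detected in either library. A ratio between replicates cannot be formed without a replicate. No paired analysis was possible because the series has 1 group. Low read numbers limit Igfbp6 (8 and 11) and the shorter Igf1 transcripts, such as that of 651 nt (17.3 and 20.4).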

Other observations

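The promoter windows of the other members differed widely in composition. The window of Igf1r, the first of the 13 by CpG number, had 76.0% GC and 48 CpG, while that of Igf1 had 52.3% GC and 6 CpG. Over all 32851 windows the median was 52.7% GC. TATAAA was in 2 of the 13 member windows, those of Igfbp4, at 28 bases before its start, and Igfbp6, and GGGCGG in 5 of 13. For 5 of the 13 windows no transcript of the gene in GENCODE M21 starts within 50 bases of the RefSeq start, among them those of Igf1r, Igf1 and Igfbp6, so these windows may not be those of the transcripts measured. These values describe letters and were not compared with levels.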
